A study of Mus musculus with 68 samples.

Results

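Oxidative phosphorylation genes were followed in 68 benign skin papillomas from 37 mice. They were taken as every gene whose platform symbol begins with Nduf (complex I and its assembly factors), Sdha, Sdhb, Sdhc or Sdhd (complex II, also called succinate dehydrogenase, and its assembly factors), Uqcr (complex III), Cox4 to Cox8 (complex IV) or Atp5 (complex V, ATP synthase). This gave 94 of the 18193 genes with a probeset of a single symbol, or 185 of the 45101 probesets of the array, and each gene was represented by the probeset of highest mean over the arrays. Sorted in this way there were 36 genes of complex I, 4 of complex II, 8 of complex III, 17 of complex IV, 17 of complex V and 12 assembly factors. The groups follow the symbol alone, and the place of single products, such as those of Ndufa4 and Ndufa4l2 in complex I, was not checked. No measured difference was used to choose them.

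The mice were FVBBX animals, a backcross of SPRET/Ei by FVB/N hybrids to FVB/N, so that each mouse carried its own mixture of FVB/N homozygous and heterozygous segments. Every mouse was 8 to 12 weeks old when its shaved back skin received 25 µg of the carcinogen DMBA, and the tumor promoter TPA followed for 20 weeks, so that no array came from an untreated mouse. Tumors came from 12 mice labelled susceptible, with 9 to 35 papillomas at 20 weeks, from 6 mice labelled resistant, with 0 or 1, and from 19 mice given neither label, here called intermediate, with 2 to 7. From 31 mice 2 papillomas were profiled and from 6 mice 1. There were 21 female and 16 male mice, and 17 mice had an agouti coat, which marks a SPRET/Ei allele at the Tyr pigment locus on chromosome 7, while 20 were white. A papilloma holds keratinocytes together with stroma and sometimes underlying muscle, and in such bulk tissue fewer cells of a type and less RNA per cell cannot be told apart.

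Oxidative phosphorylation is carried out by protein complexes of the inner mitochondrial membrane. Complex I takes electrons from NADH and complex II takes them from succinate, complex III passes them to cytochrome c, complex IV hands them to oxygen, and the proton gradient built on the way drives ATP synthesis by complex V. The genes followed here are nuclear, their products are imported into the mitochondrion, and several complex IV subunits exist as isoforms that differ between muscle, testis and other tissues. Factors such as NRF1, the ETS protein GABP, YY1, ERR alpha and CREB are known regulators of nuclear mitochondrial genes.

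The promoter letters of a few of these genes are shown first, as a description. In RefSeq (mouse assembly GRCm38.p6) 78 of the 94 genes had a promoter in the table used, and 45 of these held at least 1 of 5 motifs within 250 bases before and 50 after the start. GCGCANGCG (NRF1) stood in 27.7% of the 83 promoters of these genes and in 6.25% of all 32851 promoters, both strands counted. CCGGAAG (ETS) stood in 26.5% against 8.86%, AAGATGGCG (YY1) in 8.43% against 1.40%, TCAAGGTCA (ERR) in 2.41% against 0.423%, and TGACGTCA (CREB) in 3.61% against 1.79%. No share of all genes with any of the 5 motifs is given, so the count of 45 cannot be read against a background. The promoters compared were not matched for base composition. A match is a description of the letters and was not tested as a binding site.

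The examples are given as the 250 bases before the start, 5′ to 3′ on the strand of the gene, in lower case with motif matches in capitals. A match on the opposite strand stands as its reverse complement. Atp5l and Ndufb2 belong to a block of genes whose levels rose and fell together over mice. Atp5g3 belongs to a block that ran against it over all 37 mice, but not within the mice numbered 1 to 27. Both blocks were chosen by their correlations in these same data. Sdhd belongs to complex II, Ndufaf1 was the gene most alike between papillomas of a mouse, and Cox8b is a muscle isoform.

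Atp5l, chr9:44920743-44920992, minus strand: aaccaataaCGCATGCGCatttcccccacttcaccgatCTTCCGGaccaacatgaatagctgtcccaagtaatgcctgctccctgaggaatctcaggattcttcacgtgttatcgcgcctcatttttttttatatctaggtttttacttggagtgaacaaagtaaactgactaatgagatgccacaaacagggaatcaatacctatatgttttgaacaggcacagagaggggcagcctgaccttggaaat

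Ndufb2, chr6:39592315-39592564, plus strand: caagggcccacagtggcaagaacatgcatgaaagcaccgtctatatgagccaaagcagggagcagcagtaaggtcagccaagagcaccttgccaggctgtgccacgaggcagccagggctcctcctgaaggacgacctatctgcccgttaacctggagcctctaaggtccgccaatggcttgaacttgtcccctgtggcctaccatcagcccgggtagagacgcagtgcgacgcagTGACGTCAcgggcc

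Atp5g3, chr2:73911327-73911576, minus strand: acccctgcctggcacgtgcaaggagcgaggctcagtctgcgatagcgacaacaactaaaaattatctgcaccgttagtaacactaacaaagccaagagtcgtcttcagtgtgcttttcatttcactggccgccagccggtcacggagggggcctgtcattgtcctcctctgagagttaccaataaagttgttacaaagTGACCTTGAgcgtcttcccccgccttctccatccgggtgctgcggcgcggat

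Sdhd, chr9:50603850-50604099, minus strand: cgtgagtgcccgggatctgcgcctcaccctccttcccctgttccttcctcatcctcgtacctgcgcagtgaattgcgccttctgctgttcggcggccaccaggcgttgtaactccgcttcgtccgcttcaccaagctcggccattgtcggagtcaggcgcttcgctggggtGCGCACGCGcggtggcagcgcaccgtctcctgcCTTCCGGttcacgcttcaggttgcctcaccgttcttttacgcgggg

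Ndufaf1, chr2:119662835-119663084, minus strand: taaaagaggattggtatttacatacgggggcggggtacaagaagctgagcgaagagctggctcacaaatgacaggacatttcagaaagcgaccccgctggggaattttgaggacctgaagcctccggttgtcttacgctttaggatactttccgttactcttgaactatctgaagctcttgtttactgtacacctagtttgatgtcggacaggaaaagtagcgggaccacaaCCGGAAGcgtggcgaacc

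Cox8b, chr7:140900447-140900696, minus strand: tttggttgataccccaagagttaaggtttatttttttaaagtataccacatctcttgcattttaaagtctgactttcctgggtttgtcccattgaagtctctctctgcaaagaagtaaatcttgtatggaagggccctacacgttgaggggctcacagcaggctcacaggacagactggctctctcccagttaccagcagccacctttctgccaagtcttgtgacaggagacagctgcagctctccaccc

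Atp5l and Sdhd each held an NRF1 and an ETS match, Ndufb2 a CREB match, Atp5g3 an ERR match, Ndufaf1 an ETS match, and Cox8b none of the 5 motifs. The matches in Atp5l and Atp5g3 and the ETS match in Sdhd lie on the opposite strand, and the CREB motif reads alike on both. In the whole window, which runs past the start and beyond the bases printed, Atp5g3 also held an NRF1 match and Sdhd an ERR match.

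Nearly all of these genes were well above the middle of the array. Of the 94, 87 lay above the array median (5.18 to 5.28 on the log2 scale) in all 68 arrays, and 91 passed the filter of lying above it in at least 11 arrays and were tested among 21581 probesets. The 3 genes not tested were Cox7a1, above the median in 4 arrays, and Cox7b2 and Ndufb4, above it in 0. Their levels over mice ran from 3.23 to 6.84 for Cox7a1, from 3.02 to 3.34 for Cox7b2 and from 3.34 to 4.07 for Ndufb4. Each of these genes was read by 1 probeset of a single symbol. A low value of such a probeset cannot tell a missing transcript from a probeset that does not measure it.

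At the median, levels varied less from mouse to mouse than over all tested probesets. These include several probesets of some genes and were not matched to the members in level. The median SD over the 37 mouse means was 0.22 log2 units for the 91 tested genes and 0.28 for all tested probesets, and 45 of the 91 (49.5%) spanned more than 1 log2 unit against 67.5% of all. The steadiest was Cox8a, the isoform of the Cox8 subunit used in most tissues, at 10.87 ± 0.098 (SD, n = 37 mice). The widest were Cox8b (SD 0.69), a muscle isoform of the same subunit, Ndufa4l2 (SD 0.54), a paralog of Ndufa4 known to be induced by hypoxia, and Cox6a2 (SD 0.50), another muscle isoform. Among the assembly factors Ndufaf1 had an SD of 0.43 and Sdhaf3 one of 0.42, and in complex V Atp5md had 0.37 and Atp5e 0.33.

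The first comparison asked whether papillomas of susceptible mice differed from those of resistant mice in respiratory chain transcripts. The members leaned towards higher levels in susceptible mice by small amounts, and no single gene passed the adjusted threshold. Of the 91, 70 (76.9%) were higher in susceptible mice, with a median log2 difference of 0.065, while 52.0% of all tested probesets were higher, with a median of 0.0076. The differences ran from -0.12 to 0.40. By complex, the count above 0 was 25 of 35 for complex I, 4 of 4 for complex II, 8 of 8 for complex III, 9 of 15 for complex IV, 12 of 17 for complex V and 12 of 12 for the assembly factors, whose median of 0.12 was the largest of these groups. The test by limma called 0 of 91 at an adjusted p under 0.05, where 0.0510% of all probesets were called, and the lowest adjusted p among the members was 0.363. At an unadjusted p under 0.05 it called 2 of 91 (2.20%), against 9.52% of all probesets. Members were measured in the same mice and many vary together, so they are not replicates of each other. The counts above 0, here and below, describe direction and are no test.

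**Figure D1:**
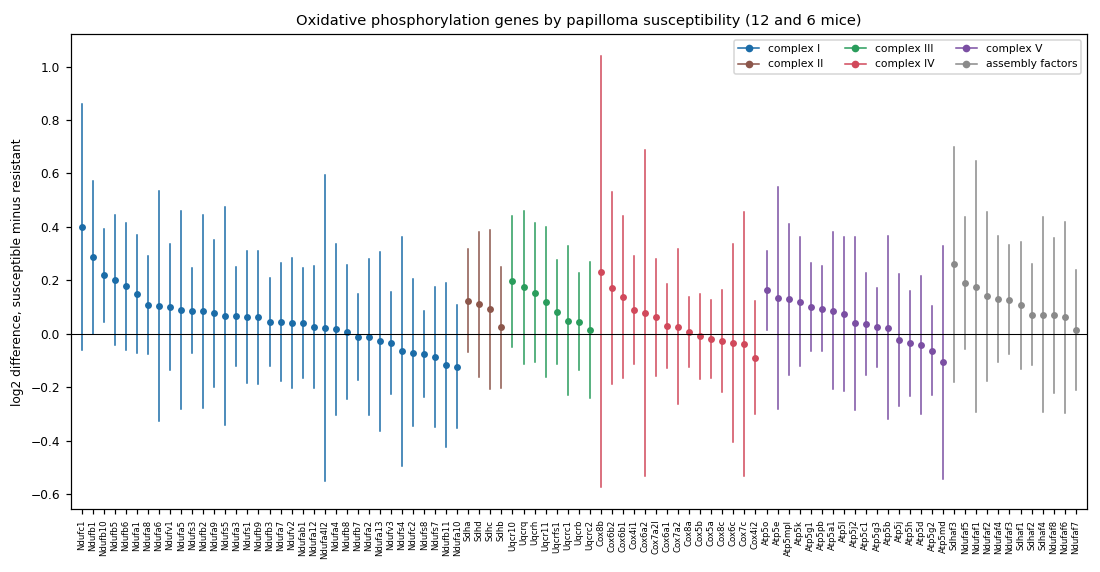
Log2 difference between susceptible (12) and resistant (6) mice for the 91 tested oxidative phosphorylation genes, grouped by complex, with 95% intervals as bars. Most points lie slightly above 0, from -0.12 to 0.40, and the median over all of them is 0.065.

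Ndufb10, an accessory subunit of the membrane arm of complex I, had a lowest, median and highest level of 10.30, 10.52 and 10.90 in susceptible mice, of 10.20, 10.31 and 10.38 in resistant mice and of 10.28, 10.50 and 10.70 in intermediate mice. The classes overlapped between 10.30 and 10.38, and all 6 resistant mice lay below the susceptible median. The difference was 0.22 (SE 0.083, 95% interval 0.045 to 0.39), with an exact permutation p of 0.0075 among 18564 splits of the mice and an adjusted p by limma of 0.363. Atp5o encodes the subunit that joins the catalytic head of ATP synthase to its stator stalk. It had 11.48, 11.65 and 11.83 in susceptible mice and 11.35, 11.45 and 11.67 in resistant mice, a difference of 0.16 (SE 0.070, exact permutation p = 0.0113, adjusted p by limma 0.461). Both genes therefore fell short of the threshold over all probesets.

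The largest difference belonged to Ndufc1, a small accessory subunit of complex I, at 0.40 (95% interval -0.059 to 0.86). Its levels overlapped widely, with 10.69, 11.29 and 12.33 in susceptible and 10.21, 10.91 and 11.38 in resistant mice. The level of 12.33 came from susceptible mouse 36, of which 1 papilloma was profiled. That mouse also had the highest mean over all members, and no difference of Ndufc1 without it is given here. Ndufb1, of the same membrane arm, differed by 0.29 (95% interval -0.00079 to 0.57). In complex II, Sdha, the flavoprotein that oxidizes succinate, differed by 0.12 (95% interval -0.067 to 0.32). In complex III the small subunits Uqcr10 and Uqcrq differed by 0.20 (95% interval -0.048 to 0.44) and 0.17 (95% interval -0.11 to 0.46), and the complex I assembly factor Ndufaf5 by 0.19 (95% interval -0.058 to 0.44). Each of these intervals included 0.

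Over all 37 mice the members were also set against papilloma number at 20 weeks. The slopes per doubling of the number plus 1 were above 0 for 68 of 91 genes (74.7%) and for 48.1% of all tested probesets. By limma 0 of 91 passed the adjusted threshold (0.00463% of all probesets), and 12 (13.2%) had an unadjusted p under 0.05 against 10.9% of all, each of them with a positive slope. The steepest was Ndufc1 at 0.15 (SE 0.0505, adjusted p by limma 0.252), and the lowest adjusted p was that of Ndufb10, at 0.063 (SE 0.018, adjusted p by limma 0.200). The others were Ndufb1, Ndufa1, Uqcr10, Uqcrq, Uqcrh, Cox4i1, Atp5k, Atp5e, Atp5mpl and Ndufaf5, with slopes of 0.058 for Ndufaf5, 0.055 for Atp5k and 0.040 for Cox4i1. Mouse 36 had both the most papillomas, 35, and the highest level of Ndufc1, and no slope without it is given here. Classes and papilloma numbers share mice and are not independent of each other.

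Coat color and sex gave no call among the members either. Between agouti and white mice, with sex as covariate, 0 of 91 passed the adjusted threshold by limma (0.0741% of all) and 2 had an unadjusted p under 0.05 against 7.87% of all. These were Ndufb2, with a mean of 11.09 in agouti and 10.89 in white mice, and Ndufa13, with 11.47 and 11.31. Neither lies on chromosome 7. Of the 9 tested members on that chromosome, Cox6b1, the subunit of complex IV that faces the intermembrane space, had the largest difference, at 12.99 in agouti and 13.16 in white mice (log2 difference -0.17, SE 0.087, adjusted p by limma 0.646). The other 8 lay between -0.14 for Cox6b2 and 0.059 for Ndufc2.

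Between female and male mice 0 of 91 passed (0.0695% of all) and 9 (9.89%) had an unadjusted p under 0.05 by limma against 14.9% of all. Lower in female mice were Uqcrc1, a core protein of complex III, with 10.70 in females and 10.91 in males (log2 difference -0.21, adjusted p by limma 0.227), Ndufs3, Ndufv1 and Ndufa10 of complex I, and Atp5g3 and Atp5d of complex V. Higher in females were Atp5j and the muscle isoforms Cox8b (5.87 against 5.40) and Cox6a2 (7.26 against 6.94). The striated muscle markers were higher in females in 16 of 16 genes, with a median log2 difference of 0.81 and 0 called, and their part in the differences of Cox8b and Cox6a2 was not tested. Females and males were also spread unevenly over the ranges of mouse number described below. The X-linked members Ndufa1 and Ndufb11 differed by 0.042 and 0.094. In 6 mice the sex markers of at least 1 array went against the label. Without these mice 0 of 91 members were called by sex as well, and no share of all probesets is given for that setting.

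Likeness between papillomas of a mouse was common among the members and among all probesets. The intraclass correlation is the share of variance between mice among the 62 arrays of the 31 mice with 2 papillomas, tested by F and adjusted over all probesets. It passed for 75 of the 91 genes (82.4%), where 71.0% of all tested probesets passed, or 73.9% of those above the array median in every array. The median was 0.520 for the members and 0.435 for all. It passed for 29 of 35 genes of complex I (median 0.502), 4 of 4 of complex II (0.582), 6 of 8 of complex III (0.434), 11 of 15 of complex IV (0.534), 16 of 17 of complex V (0.576) and 9 of 12 assembly factors (0.483). Read against the 71.0% of all probesets, the shares of complexes III and IV and of the assembly factors were close to the background.

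**Figure D2:**
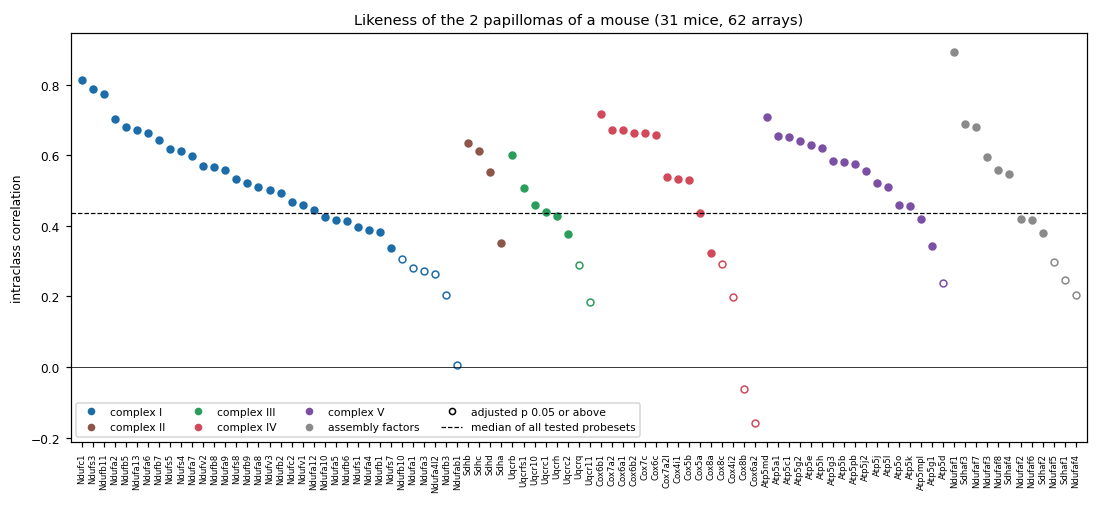
Intraclass correlation of each tested oxidative phosphorylation gene over 31 mice with 2 papillomas, by complex, with the median of all tested probesets (0.435) as a dashed line and genes that did not pass the adjusted threshold as open points. Ndufaf1 stands highest at 0.892, and the muscle isoforms Cox6a2 and Cox8b lie below 0.

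Ndufaf1, a chaperone for the membrane arm of complex I, was the most alike, at 0.892. Its pair means ran from 5.93 over a median of 6.97 to 7.58, while the median difference between papillomas of a mouse was 0.14. Ndufc1 followed at 0.814, with pair means of 10.21, 11.22 and 11.41 at the lowest, middle and highest mouse and a median difference within a mouse of 0.15. In both genes the measured values thus differed by far more between mice than between papillomas of a mouse. Whether SPRET/Ei bases within the probes have a part in these values was not tested.

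Ndufs3, a core subunit of the arm of complex I that holds the iron-sulfur clusters, reached 0.787 with a narrower range of 10.16 to 10.83. Ndufb11 reached 0.773, Cox6b1 0.718, Atp5md, a small subunit that helps ATP synthase form dimers, 0.707, and Sdhaf3, an assembly factor for succinate dehydrogenase, 0.688. The adjusted p from the F test was 5.82e-10 for Ndufaf1. In complex II, Sdhb and Sdhc reached 0.636 and 0.612, Sdhd 0.552 and Sdha 0.353.

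The least alike were Cox6a2 at -0.159 and Cox8b at -0.063, followed by Ndufab1, the mitochondrial acyl carrier protein, at 0.0050, and Uqcr11, a small complex III subunit, at 0.185. Cox8b differed by up to 2.30 between papillomas of a mouse (mouse 37) and Cox6a2 by up to 1.41 in the same mouse, although their pair means spanned only 4.97 to 6.36 and 6.57 to 7.52. The arrays of mouse 37 also lay farthest apart of the 31 pairs in the log2 ratio of the 3′ to the 5′ control probesets of Actb, a measure of RNA quality, at -0.27 and 1.71, and in that of Gapdh, at -0.84 and 0.67, and the part of RNA quality in these differences was not tested. Without mouse 37 the intraclass correlation was 0.067 for Cox8b and -0.083 for Cox6a2, and 71 of 91 members passed. The median over all tested probesets was 0.419 without this mouse. The share of all probesets that passed without it is not given, so the count of 71 cannot be read against the background.

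**Figure D3:**
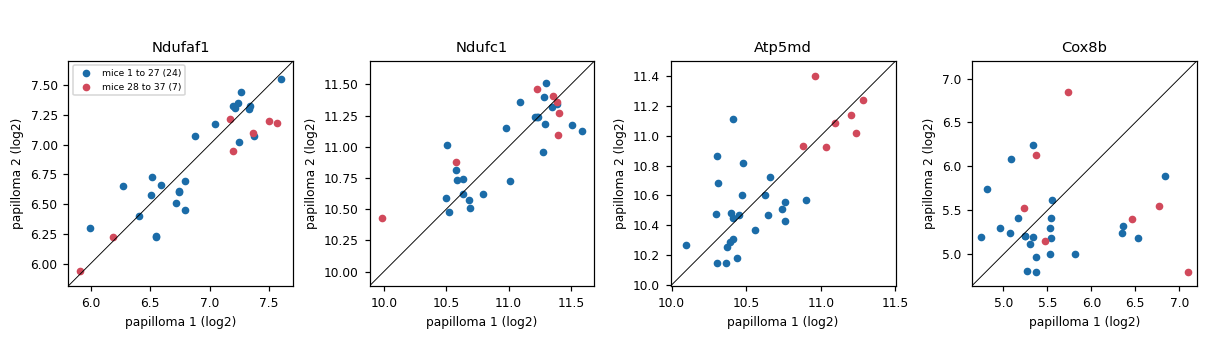
Log2 level in papilloma 1 against papilloma 2 of the same mouse for Ndufaf1, Ndufc1, Atp5md and Cox8b (31 mice, 1 point each, colored by the range of the mouse number in the labels, with the line of equality). Ndufaf1 and Ndufc1 follow the line, with intraclass correlations of 0.892 and 0.814, and Cox8b does not, at -0.063.

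The labels number the mice, and numbers 1 to 27 run in order of the start of treatment while number 28 returns to the first start cohort. The levels of several members followed this boundary, which was noticed in these values, so the comparison below describes it and is no independent test. The labels name no batch or other reason for this boundary. The days alive that they record, missing for some mice, had both their lowest and their highest values in mice 28 to 37. Mice 28 to 37 comprised 6 susceptible and 4 resistant mice, and mice 1 to 27 comprised 6 susceptible, 2 resistant and all 19 intermediate ones. Most of mice 28 to 37 were female, while the sexes were about evenly divided in mice 1 to 27. The genes named above with an unadjusted p under 0.05 by sex in limma were, except for Ndufa10, also called between these ranges. Each kept the direction of its sex difference, so sex and number range are not independent of each other. By limma 44 of the 91 members (48.4%) differed at an adjusted p under 0.05, against 31.9% of all probesets, 35 of them higher and 9 lower in mice 28 to 37, and 61 had an unadjusted p under 0.05 against 42.9% of all. The median log2 difference of the members was 0.13 and that of all tested probesets -0.020.

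The higher ones came from each complex except complex II, with 14 in complex I, 5 in complex III, 4 in complex IV, 8 in complex V and 4 assembly factors. The muscle isoform Cox8b differed most, by 0.88 (SE 0.20). Atp5md had a lowest, median and highest level of 10.91, 11.15 and 11.61 in mice 28 to 37 and of 10.18, 10.46 and 10.76 in mice 1 to 27, so that the ranges did not overlap, and differed by 0.73 (SE 0.069). Ndufa6, an accessory subunit of complex I, had 10.58, 10.99 and 11.52 against 9.81, 10.23 and 10.87, a difference of 0.71 (SE 0.093). The ranges of Ndufa6 met over a short stretch.

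Cox6c and Cox7a2, small subunits of complex IV, were higher by 0.54 (SE 0.075) and 0.43 (SE 0.054). Ndufs4, needed for the assembly of the NADH-oxidizing part of complex I, was higher by 0.62 (SE 0.089), Ndufb2 by 0.51 (SE 0.072) and Atp5j2, the f subunit of ATP synthase, by 0.48 (SE 0.064). The genes that were lower included the catalytic subunits of ATP synthase, Atp5a1 (-0.37, SE 0.068) and Atp5b (-0.33, SE 0.078), with the other subunits Atp5d (-0.23) and Atp5g3 (-0.18). They further included Ndufv1, the NADH-binding subunit of complex I (-0.36, SE 0.057), Ndufa9 (-0.36, SE 0.072), Ndufs3 (-0.16), Uqcrc1 (-0.33, SE 0.070) and the assembly factor Ndufaf7 (-0.24). Thus members of the same complex moved both ways.

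**Figure D4:**
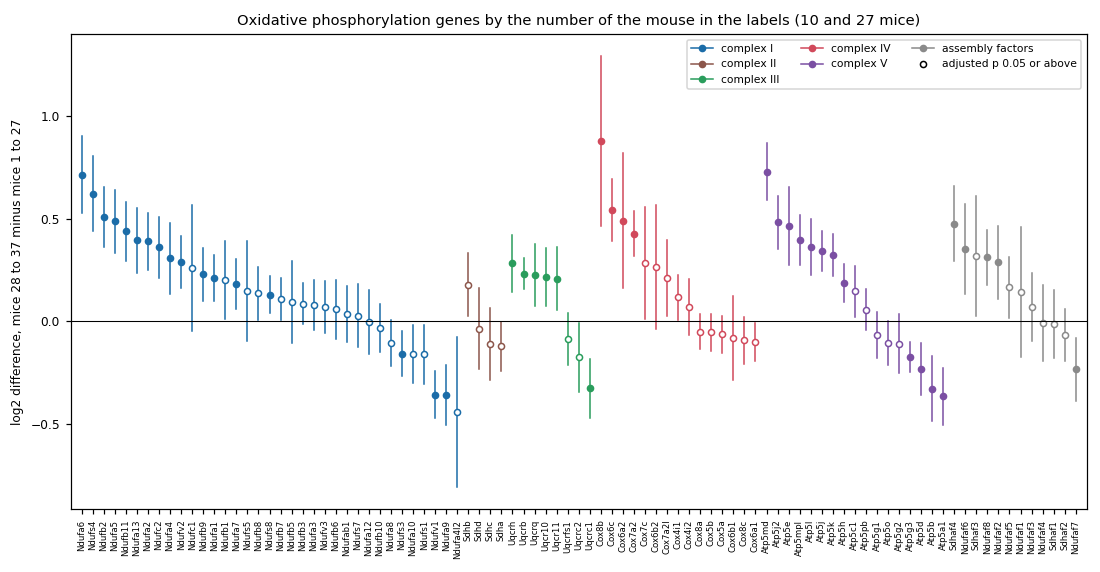
Log2 difference between mice 28 to 37 (10) and mice 1 to 27 (27) for the tested oxidative phosphorylation genes, by complex, with 95% intervals as bars and genes not called as open points. Of these genes 35 were called higher, up to 0.88 for Cox8b, and 9 lower, down to -0.37 for Atp5a1.

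Other measures also differed in mean across the same boundary. The log2 Actb ratio averaged 0.708 (0.48 to 1.43) in mice 1 to 27 and 0.820 (0.18 to 1.29) in mice 28 to 37, so that its values overlapped widely. The mean level of 16 striated muscle markers was 5.67 (4.67 to 8.36) against 7.02 (4.80 to 9.36), with 10 of 16 called higher, and that of 7 keratinocyte markers was 13.18 (12.80 to 13.51) against 12.59 (11.60 to 13.06), with 6 of 7 called lower. Of the endothelial markers 5 of 5 and of the fibroblast markers 3 of 6 were called higher, and of the proliferation genes 3 of 9 were called lower. Their part in the differences of the members was not tested. Among susceptible and resistant mice alone, with class as covariate, 27 of 91 members were called against 11.7% of all probesets, and among mice with 2 papillomas 28 against 13.9% of all.

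With the number range regressed out, 62 of 91 members (68.1%) still passed for likeness within a mouse, against 61.9% of all probesets, and the median was 0.410 against 0.398. Within mice 1 to 27 it was 49 of 91 (53.8%) against 56.4%. The intraclass correlation remained 0.896 and 0.880 for Ndufaf1, 0.817 and 0.801 for Ndufc1, and 0.726 and 0.741 for Cox6b1, the value with the range regressed out first and that in mice 1 to 27 second. That of Atp5md came to 0.220 and 0.214, neither of which passed (adjusted p from the F test 0.141 and 0.185). Sdha, at 0.322 and 0.324, did not pass either (adjusted p from the F test 0.055 and 0.084). With the range as covariate, or within either set of mice, 0 of 91 members passed between susceptible and resistant mice. No share of all probesets is given for these settings.

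Members did not vary as 1 unit over the mice. Among the 4095 pairs of tested genes the median Pearson correlation over 37 mice was 0.212 (Spearman 0.174), and 32.6% of pairs were below 0. The extremes were 0.957 for Cox7a2 with Cox6c and -0.770 for Atp5g3 with Ndufa6. Within complexes the median was 0.601 for complex II, 0.274 for complex I, 0.254 for assembly factors, 0.240 for complex V, 0.127 for complex III and 0.056 for complex IV. The 4 subunits of succinate dehydrogenase thus had the highest median, which rests on 6 pairs from 0.221 to 0.730. Their mean level was lowest in mouse 37, at 9.38 against 9.93 over all mice, and no value without that mouse is given. The genes of complex IV include muscle and testis isoforms.

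Ranked by their median correlation with the other members, the 10 highest genes were Cox7a2, Atp5e, Atp5l, Ndufb2, Uqcr10, Ndufs4, Cox6c, Ndufa2, Atp5j2 and Ndufc2, and the 10 lowest were Atp5b, Atp5d, Ndufa9, Atp5a1, Uqcrc1, Atp5g3, Cox6a1, Ndufs1, Ndufv1 and Ndufa10. By this choice, the median correlation was 0.877 within the first set, 0.558 within the second and -0.547 between them. Within mice 1 to 27 these medians were 0.669, 0.307 and 0.012, so that the opposition between the sets was not seen there, and in mice with 2 papillomas they were 0.810, 0.415 and -0.220. All 10 genes of the first set were called higher, and 7 of 10 of the second lower, in mice 28 to 37. The susceptible mice 36 and 31, each with 1 papilloma, lay at the far end.

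The mean of the mitochondrial ribosome genes had a median correlation of 0.575 with the first set and -0.140 with the second. Tricarboxylic acid cycle genes had -0.298 and 0.580, glycolysis genes -0.545 and 0.526, keratinocyte markers -0.675 and 0.449, striated muscle markers 0.560 and -0.338, and the Actb ratio 0.288 and -0.296. These correlations share the 37 mice and their arrays and are descriptions. Among the 8 genes of each set with a promoter, the NRF1 motif stood in 1 of the first set and 3 of the second, the ETS motif in 2 and 1, the YY1 motif in 2 and 1, the CREB motif in 1 and 1 and the ERR motif in 0 and 1.

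**Figure D5:**
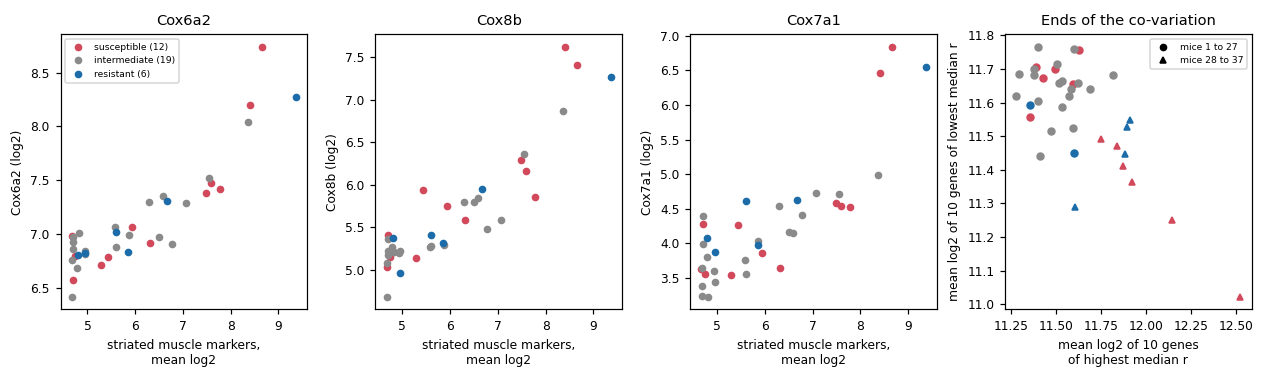
The first 3 panels plot the log2 levels of Cox6a2, Cox8b and Cox7a1 against the mean log2 level of 16 striated muscle markers, 1 point per mouse (37), colored by class. The last panel plots the mean of the 10 genes of highest median correlation against the mean of the 10 lowest, colored by class with triangles for mice 28 to 37, which lie towards high values of the first and low values of the second.

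The muscle isoforms of complex IV followed striated muscle markers. Over 37 mice the correlation with the mean of the 16 markers was 0.899 for Cox8b (Spearman 0.871), 0.888 for Cox6a2 (0.806) and 0.834 for Cox7a1 (0.757). Each had an adjusted permutation p of 4.0e-05 over 12 relations, where 1e-05 is the smallest unadjusted p that 100000 permutations can give. Without the 2 mice farthest from the median of the markers the correlations were 0.861, 0.870 and 0.769. Within the 3 start cohorts of at least 6 mice they lay between 0.771 and 0.957 for these 3 genes. In mice 1 to 27 they were 0.873 for Cox8b, 0.836 for Cox6a2 and 0.739 for Cox7a1, and in mice 28 to 37 they were 0.903, 0.924 and 0.880. In the 31 mice with 2 papillomas, which leave out the 4 mice of highest marker level, they were 0.834, 0.831 and 0.691.

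Among their counterparts used outside muscle, Cox6a1 had a correlation of -0.231 with the markers and Cox8a one of -0.068, and Cox7a2 had 0.573 (adjusted permutation p = 0.00090), which was 0.416 in mice 1 to 27 and 0.366 in mice with 2 papillomas. The testis isoform Cox8c had -0.504 (adjusted permutation p = 0.0036), or -0.339 without the 2 farthest mice, and Cox4i1 had 0.376 (adjusted permutation p = 0.042), which came to 0.150 in mice with 2 papillomas. The remaining isoforms Cox4i2, Cox6b1, Cox6b2 and Cox7b2 lay between -0.243 and 0.166.

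The same held between papillomas of a mouse. Over 31 pairs, the difference in Cox6a2 had a correlation of 0.850 with that in the muscle marker mean, Cox8b 0.843 and Cox7a1 0.566, and the marker mean itself had an intraclass correlation of 0.212. The highest marker means were 9.36 in resistant mouse 35, 8.65 in susceptible mouse 31, 8.41 in susceptible mouse 36 and 8.36 in intermediate mouse 19, each with 1 papilloma. In class, Cox8b differed by 0.23 (SE 0.39) and Cox6a2 by 0.078 (SE 0.29), both well within the spread between mice.

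Genes around the respiratory chain were read from lists named in the methods. Between susceptible and resistant mice, 0 genes of any list passed by limma. Of the electron carriers and remaining subunits 6 of 7 were higher in susceptible mice (median log2 difference 0.063), of the complex IV and III assembly factors 9 of 14 (0.065), of tricarboxylic acid cycle genes 11 of 16 (0.045), of mitochondrial ribosome genes 59 of 76 (0.092), of the regulators of mitochondrial genes 5 of 12 (-0.014) and of glycolysis genes 2 of 13 (-0.079). The first list included Etfdh, which passes electrons from fatty acid oxidation to ubiquinone, at 0.27 (adjusted p by limma 0.309). Among the regulators, Ppargc1a, the coactivator PGC-1 alpha, did not pass the filter (3.30 to 4.98 over mice), Nrf1 differed by -0.020, Gabpa by -0.0077, Esrra by -0.037 and Tfam, which packages mitochondrial DNA, by 0.053.

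Likeness within a mouse passed for 4 of 7 electron carriers, 10 of 14 assembly factors, 12 of 16 tricarboxylic acid cycle genes, 53 of 76 mitochondrial ribosome genes, 10 of 12 regulators and 8 of 13 glycolysis genes, against 71.0% of all probesets. Among cell type markers, the class medians were 0.24 for striated muscle (13 of 16 higher), 0.76 for brown fat and adipocytes (3 of 3), 0.092 for keratinocytes (4 of 7), -0.041 for fibroblasts (3 of 6), -0.21 for endothelium (0 of 5), 0.39 for T cells (4 of 4), 0.17 for macrophages (6 of 7) and -0.13 for proliferation genes (2 of 9). With 0 called in each list, their part in the small differences of the members was not tested.

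Other probesets of the same genes mostly ran with those used. Of 71 further tested probesets of 47 members, 50 had a correlation above 0.5 with the probeset used over mice, with a median of 0.739 and extremes of -0.198 (Ndufb9) and 0.994 (Ndufb11). By limma 0 of them were called by class, coat or sex, and 51 (71.8%) passed for likeness within a mouse against 71.0% of all tested probesets. The second probeset of Ndufc1 had a class difference of 0.42 and ran with the first at 0.903.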

How the data were processed

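Papillomas were hybridized singly to whole-genome Affymetrix mouse expression arrays. The deposited values are log2 expression per probeset, made by the authors with RMA as the submitters' processing notes state, which corrects background, normalizes arrays by quantiles and summarizes probes. RMA removes array-wide shifts, so levels are relative within an array and levels of different probesets were not compared. No version of RMA was given in the sources used here. Precision is limited by the number of arrays and mice.

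Probesets were named by the platform annotation. Those with a single symbol above their array's median in at least 11 of 68 arrays were tested, 21581 in all, and 10 probesets of these families with several symbols were left out. Names, chromosomes and promoters came from RefSeq tables for GRCm38.p6. The replicate was the mouse, and papillomas of a mouse were averaged. Mice are separate animals, whereas papillomas of a mouse are not independent. No arrays were duplicates.

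Class, papilloma number, coat (with sex as covariate) and sex were fitted with limma 3.58.1 in R 4.3.3, two-sided, with Benjamini-Hochberg adjustment over all tested probesets and a threshold of 0.05. For named members the class labels of the 18 mice were also permuted exactly (two-sided). The study itself compared classes over arrays with SAM. Intraclass correlations were computed in Python 3.11.15 with scipy 1.17.1 and tested by F. Both kinds of fit were tested on simulated data in which 200 probesets were changed.

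Genes were named by rule: per comparison the members past the threshold (at most 10 by p) and the 2 of smallest p in each complex, the 2 highest and 2 lowest in likeness and the 2 of largest SD in each complex, members on chromosome 7 (coat) or X (sex), and 12 tissue isoforms of complex IV. Further genes under an unadjusted p of 0.05, those of the mouse number ranges and those of the correlation ends were named after their values were seen. The lists covered striated muscle, brown fat and adipocyte, keratinocyte, fibroblast, endothelium, T cell, macrophage and proliferation markers, electron carriers, complex IV and III assembly, the tricarboxylic acid cycle, the mitochondrial ribosome, regulators and glycolysis. Members and lists were chosen with earlier results of these data known. The mouse number range, mice with 2 papillomas, the stricter filter for likeness, the class fit within cages, likeness without mouse 37 and the settings of co-variation were added after seeing the data. Skin, carcinomas, genotypes and SPRET/Ei bases within probes were not analysed here.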

Additional observations from a re-analysis of the deposited data

Results flagged for a closer look

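Among the 35 genes whose levels over the 6 resistant mice were examined for a mouse far from the others, 2 stood out, where chance gives about 1 in 20 groups. Uqcrc2, a core protein of complex III, was at 10.69 in resistant mouse 34 and at 11.14 to 11.39 in the other 5, so that the gap was 0.640 of the range. Cox6a2, the muscle isoform, was at 8.27 in resistant mouse 35 and at 6.80 to 7.30 in the others, a gap of 0.661 of the range, and mouse 35 also had the highest mean of striated muscle markers, 9.36.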

How the results depend on the processing

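No paired analysis was possible because the replicate number in the labels marks which of a mouse's 2 papillomas an array holds, and the groups compared share no mice. By cage instead, in the 4 cages that held mice of both classes (8 mice) and with cage as a block, 0 of 91 members were called by limma, 1 had an unadjusted p under 0.05, and 65 lay above 0 with a median of 0.077. Of all tested probesets in the same limma fit, 0 were called and 6.56% had an unadjusted p under 0.05. Above 0 lay 48.2% of them, with a median of -0.0087. By class, papilloma number, coat and sex, 0 of 91 members were called under every alternative run, including arrays as samples and, by class, leaving out each of the 18 mice in turn (0 to 0). The count alike within a mouse (75) was 62 to 74 under the other alternatives and 49 in mice 1 to 27, which are fewer. The count between mouse number ranges (44) was 34 and 41 with covariates, 28 in mice with 2 papillomas and 27 in susceptible and resistant mice with class as covariate, both with fewer mice. The shares of all probesets were 61.9% for likeness with the number range regressed out and 56.4% in mice 1 to 27. Between ranges they were 13.9% in mice with 2 papillomas and 11.7% in susceptible and resistant mice. For the other settings no such share is given here, so their counts cannot be read against the background. Among single genes the sign or side of 0 changed in these cases, none of them past the adjusted threshold, and the cause was not tested.

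By class, Sdha was -0.039 within cages, Sdhd ran from -0.0038 (without resistant mouse 37) to 0.21 (without resistant mouse 35) over the mice left out and was -0.00905 in mice 1 to 27, Uqcrq -0.0093 with the probeset of largest SD, and Cox6b2 -0.11 in mice 1 to 27. By papilloma number, Sdhb was -0.011 in mice 1 to 27 and -0.0016 in mice with 2 papillomas, and Ndufaf8 -0.0064 in the latter. By coat, Cox8b was -0.0059 with centred arrays, -0.21 in mice 1 to 27, -0.016 in mice with 2 papillomas, -0.14 with the number range, -0.029 without covariate and -0.071 once mice of doubtful sex label were dropped. Without those mice Sdhc was -0.030, Ndufa3 -0.021 and Sdhaf1 0.012. With the control ratios Sdhc was -0.0026 and Cox6a2 0.022, Ndufc2 was -0.016 in mice 1 to 27 and -0.0055 with the number range, and Sdhaf1 was 0.0031 without covariate and 0.028 with sex and class. By sex, in mice 1 to 27, in mice with 2 papillomas and with the number range, in that order, Sdhb was -0.010, -0.031 and -0.019, Sdha 0.012, 0.0069 and 0.021, Ndufa1 -0.035, -0.029 and -0.012, and Ndufb11 -0.064, -0.00713 and -0.019. Ndufaf8 was -0.0042 in mice 1 to 27, Sdhb -0.022 without the doubtful mice and Sdha 0.00016 with coat and class. The intraclass correlation of Ndufab1 was -0.073 with centred arrays, -0.12 for the mean of its probesets, -0.089 in mice 1 to 27, -0.26 with start cohort regressed out -0.015 without the doubtful mice and -0.083 without mouse 37, and that of Cox8b 0.062 with control ratios regressed out, 0.015 in mice 1 to 27 and 0.067 without mouse 37. Of the other single values, 1198 stayed on their side of the threshold, 19 lost it and 2 gained it.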

Other observations

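Respiratory chain genes that the rule did not take also differed between mice 28 to 37 and mice 1 to 27. Cycs, the soluble electron carrier cytochrome c, was higher in mice 28 to 37 by 0.34 log2 units, Cox17, a copper chaperone for complex IV, by 0.40 and Atpif1, an inhibitor of ATP synthase, by 0.24. Cyc1, the cytochrome c1 of complex III, was lower (-0.25). Of the mitochondrial ribosome genes 24 of 76 were called higher and 14 lower by limma, against 31.9% of all probesets called either way, of the tricarboxylic acid cycle genes 0 of 16 higher and 2 lower, of the glycolysis genes 1 of 13 higher and 4 lower, of the complex IV and III assembly factors 3 of 14 each way, and of the regulators 1 of 12 higher and 2 lower. Among these regulators Yy1 was higher (0.19), and Tfb2m (-0.27) and Ppargc1b (-0.33) were lower. The muscle and keratinocyte markers moved with the same boundary, as given above, while the values of the Actb ratio overlapped widely between the 2 sets of mice. The part of these measures was not tested.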
